A study of Homo sapiens with 20 samples.

Results

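CDX1, CDX2, HNF4A, HNF4G, GATA6, KLF5 and ELF3 are 7 transcription factor genes of the intestinal epithelium. They were chosen by symbol and make up 7 of the 17113 protein-coding genes counted, with RNA levels taken from cells and from released extracellular vesicles of 10 human colorectal cancer cell lines. Extracellular vesicles are membrane-bound particles that cells release into their medium. The lines were LoVo, COLO-201, SNU-C1, HT-29, WiDr, HCT 116, LS123 and SW480, labelled as colon, and LS1034 and LS513, labelled as cecum. All are labelled adenocarcinoma and WT, with no treatment, and grew in serum-containing RPMI-1640 or DMEM. Each line gave 1 library of total cell RNA and 1 library of vesicle RNA, so there are 20 libraries, the cell line is the replicate (n = 10), and cultures of the same line cannot be compared. The series asks how far vesicle transcripts follow those of the cells that released them. Cell RNA went through a ribosome-depleting stranded kit and vesicle RNA through a low-input SMART-Seq and Nextera kit, so compartment and kit cannot be told apart. In bulk RNA, fewer cells of a type and less RNA per cell cannot be told apart either.

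CDX1 and CDX2 are caudal-type homeobox factors that set and keep intestinal identity, and CDX2 is the standard marker of colorectal origin in pathology. HNF4A and HNF4G are paralogous nuclear receptors that switch on enterocyte genes, brush border and lipid handling among them, often at enhancers that CDX2 also binds. GATA6 is a zinc finger factor of endoderm and of the crypt, KLF5 is a Krüppel-like factor of dividing crypt cells, and ELF3 is an epithelium-specific ETS factor that acts in epithelial differentiation.

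Cell libraries held 24.8 to 37.4 M counts and vesicle libraries 1.75 to 24.4 M. For a count of 0 the one-sided 95% limit is about 3 counts. That corresponds to 0.0802 to 0.121 CPM (counts scaled to the library total) for cells and 0.123 to 1.72 CPM for vesicles. Such limits and all intervals cover counting error only. Vesicle libraries carry reads spread over genes that are silent in the cells, an estimated 1.66% (SW480) to 40.4% (SNU-C1) of their counts. The estimate for cells was 0.0249% to 0.139%, which is low by construction, because the silent genes were picked for their low cell counts. The cell libraries of HT-29 and WiDr resembled each other (r of their deviations from the mean of the lines 0.864 across 10036 genes), as did those of HCT 116 and LS123 (0.806), where the next pair reached 0.346. HT-29 and WiDr are known to derive from the same tumour. Whether the libraries labelled LS123 and HCT 116 come from distinct lines was not tested, so results are also given without LS123. The colon markers CDH17, GPA33, LGALS4, VIL1, EPCAM and KRT20 all stood at or above 1 CPM in the cells of 6 lines, while HCT 116 and LS123 each had 4 of the 6 (CDH17, GPA33, LGALS4 and VIL1) below 1 CPM, SW480 had LGALS4 and KRT20, and COLO-201 had CDH17. Markers of leukocytes, fibroblasts, endothelium, hepatocytes, squamous epithelium, erythroid cells and platelets summed to 3.83 to 1959 CPM in cells, with 3 to 8 of 19 markers at 0 counts, and to 53.5 to 1427 CPM in vesicles, with 0 to 5 at 0. KRT5, at 1826 CPM in SW480 cells, gave the highest sum, and the part of such reads in the results was not tested.

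All 7 genes passed the filter on low counts. Relative to cells, 5 of them fell in vesicles (HNF4A, HNF4G, GATA6, KLF5 and ELF3) and 0 rose, in edgeR's quasi-likelihood test with cell line as a block, TMM scaling and an adjusted p under 0.05 over all 15130 genes tested. Of all genes tested 28.1% fell and 28.6% rose. Among the 10024 tested genes that averaged 10 CPM or more in cells, which include all 7, 42.2% fell and 5.29% rose. Choosing genes by a high cell level favours falls by construction. The median log2 change of the 7 was -0.87, that of these 10024 genes -0.53 and that of all genes tested 0.01. With the estimated background reads subtracted, 2 of the 7 (GATA6 and KLF5) fell and 0 rose, against 18.9% and 15.8% of all genes. In the 5 lines of lowest background 2 fell (HNF4A and HNF4G) and 0 rose, against 19% and 19.5% of all genes. Without LS123 the same 5 fell, at -0.90 (HNF4A, edgeR adjusted p = 0.00786), -1.71 (HNF4G, 0.000513), -1.50 (GATA6, 0.00927), -1.67 (KLF5, 0.00317) and -0.80 (ELF3, 0.0317), with CDX1 at 0.79 (0.273) and CDX2 at 0.22 (0.766). Shares of all genes were not counted for runs with 1 line left out, so the count without LS123 has none beside it. Without WiDr and LS123, a setting added after seeing the data, 4 fell, against 25.2%, and ELF3 was no longer called (adjusted p = 0.0807). In that setting 25.5% of all genes rose. In the 5 lines of highest background 4 fell (HNF4G, GATA6, KLF5 and ELF3), against 25.5% of all genes, and 0 rose, against 34%. Without the block 2 fell and 0 rose, against 22.7% and 22.9%. Other scalings moved the median of all genes to between 0.38 and 0.76. Of the members, 2 fell with DESeq2's size factors in edgeR (18.5% of all genes fell and 35.2% rose), 2 with library size only (16.3% and 36.6%) and 1, with CDX1 rising, under upper-quartile scaling (11.6% and 46%). DESeq2 called 3 lower and CDX1 higher (20.8% and 41.4%). The cell and vesicle libraries overlapped in level for all 7 members, as for most genes: 4.35% of genes had all vesicle libraries below all cell libraries and 8.57% all above.

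**Figure D1:**
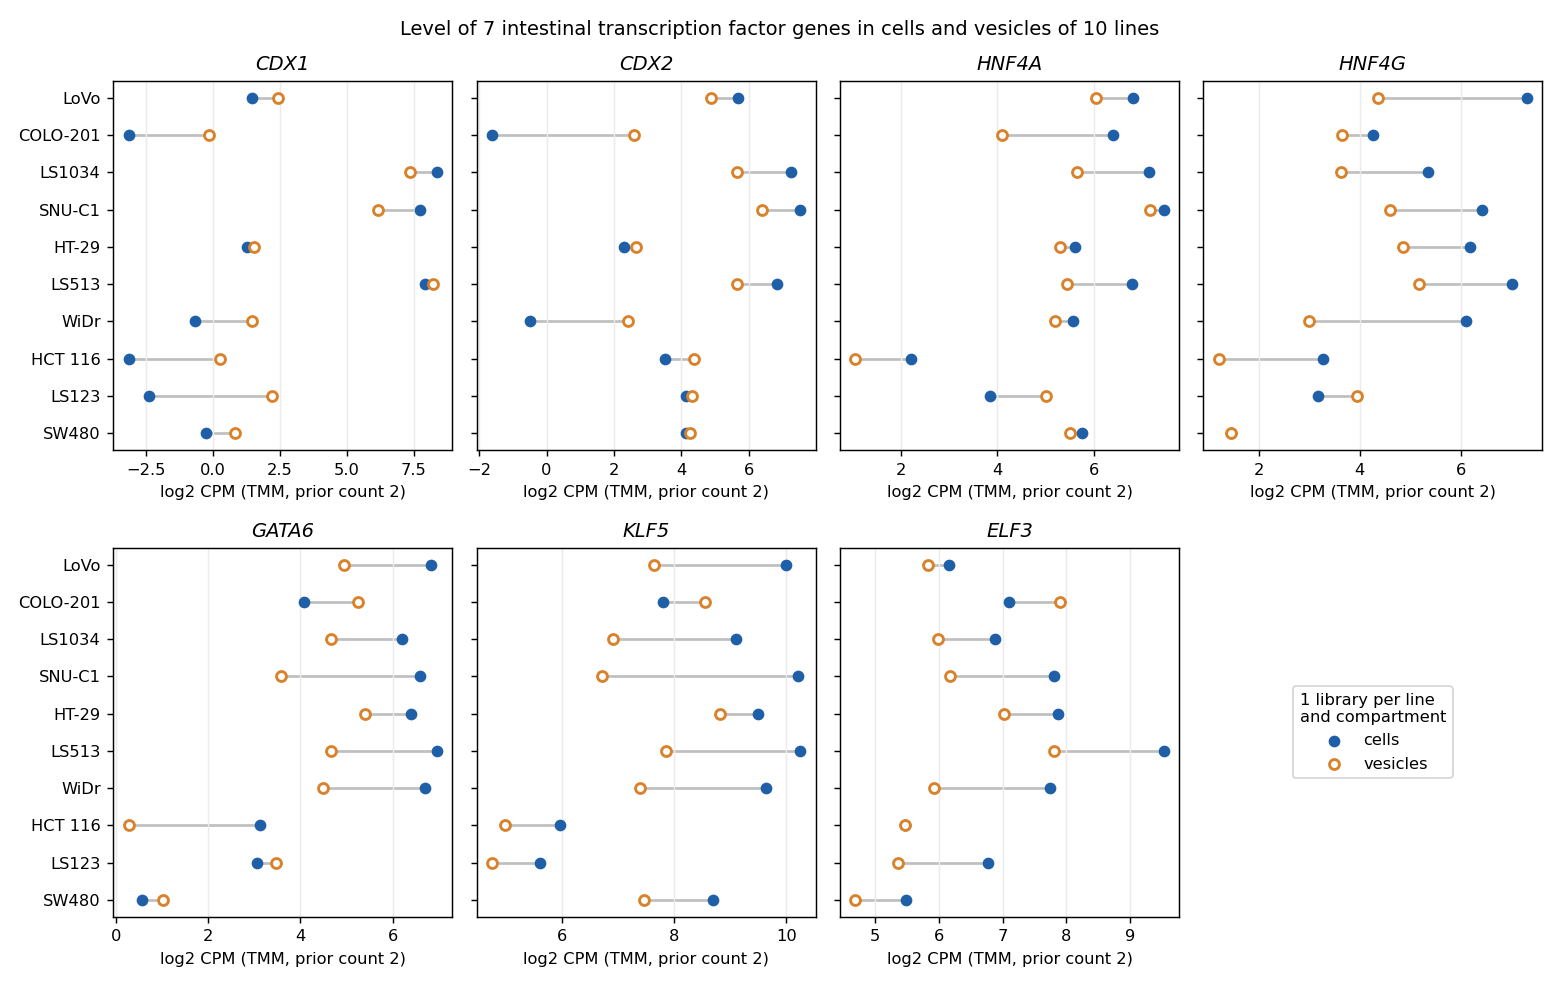
Level of each of the 7 genes (x axis, log2 CPM, TMM-scaled with a prior count of 2) in the 10 lines (y axis), with filled points for cells and open points for vesicles, 1 library each. The 3 lines high in CDX1 stand far to the right of the other 7 in both compartments, and KLF5 was lower in vesicles in 9 of 10 lines.

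CDX1 (chromosome 5, positions 150166795 to 150184558, plus strand, GRCh38) was high in 3 lines and low or at 0 counts in 7. In cells it stood at 328 CPM in LS1034, 239 CPM in LS513 and 213 CPM in SNU-C1 (TMM-scaled, as are all CPM below unless library totals are named). The other 7 lines held 0 to 83 counts, at most 2.65 CPM (LoVo). COLO-201 and HCT 116 held 0 counts, with one-sided 95% limits of 0.0865 and 0.0908 CPM of the library total. The lowest of the 3 high lines was therefore 80.4-fold above the highest of the 7 others. Both cecum lines, LS1034 and LS513, were among the 3. The 3 high lines differed from one another and from the rest beyond counting error, whereas 5 of the 9 neighbouring pairs in the order of lines did not, all of them among the 7 low lines.

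Vesicles carried the same split. CDX1 reached 294 CPM in LS513, 164 CPM in LS1034 and 72.0 CPM in SNU-C1 vesicles, and 0.787 to 5.29 CPM in the other 7, a gap of 13.6-fold. The 7 low vesicle libraries held 159 CDX1 counts together where the background model gave 134, with 0.653 to 1.76 times the expected counts in each, while the 3 high ones held 7.94 to 119.5 times the expectation. Low vesicle counts of CDX1 thus lay under 2 times the background level in all 7 lines that had little of it in cells. HT-29 was the highest of them, with 61 counts where 34.6 were expected, which is above the expectation beyond counting error. The lines formed separate clusters (the widest gap took 54.5% of the range of log2 levels in cells), so no correlation over the 10 lines is given.

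The fitted change of CDX1 was 1.15 on the log2 scale (SE 0.68, edgeR adjusted p = 0.166, higher in vesicles in 8 of 10 lines). It mixed unlike lines. Where CDX1 was high in cells, its vesicle level was lower in LS1034 (164 against 328 CPM), 2.95-fold lower in SNU-C1 and 1.23-fold higher in LS513. The 7 low lines, under 2 times the expected background in vesicles, all had the higher value there. With background reads subtracted the estimate turned to -0.23 (adjusted p = 0.626). DESeq2 called it higher (1.91, adjusted p = 0.00248), as did edgeR with upper-quartile scaling (1.87, adjusted p = 0.0238). The estimate depends on the prior count where cells hold 0 counts and is no bound.

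CDX2 (chromosome 13, 27962137 to 27971139, minus strand) ran over a wide and graded range. In cells it ran from 0.212 CPM in COLO-201 (6 counts) over a median of 17.4 CPM to 184 CPM in SNU-C1. The order was SNU-C1, LS1034, LS513, LoVo, LS123, SW480, HCT 116, HT-29, WiDr and COLO-201, and only LS123 with SW480 and WiDr with COLO-201 did not differ beyond counting error. The first 3 are the lines high in CDX1. HT-29 and WiDr, so alike otherwise, differed in CDX2: 116 counts (4.83 CPM) against 13 (0.605 CPM), a ratio of 7.99, while their HNF4A, HNF4G, GATA6, KLF5 and ELF3 levels had ratios of 0.808 to 1.08 and CDX1, low in both, one of 4.48.

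In vesicles CDX2 ran from 5.25 CPM in WiDr over a median of 20.2 CPM to 83.9 CPM in SNU-C1, a 16.0-fold range where cells had one of 868. WiDr vesicles held 0.552 times the expected background, so the low end of the vesicle range was not above background. The SD over lines on the log2 scale was 3.14 in cells and 1.39 in vesicles. The order was close to that in cells, though 6 of the 9 neighbouring pairs of vesicle libraries did not differ beyond counting error. Pearson's r of the log2 levels in cells and vesicles was 0.948 over the 10 lines and Spearman's rho 0.952 (permutation p = 0.00014 and 0.00098, two-sided, each adjusted over the 7 members). Without COLO-201 and WiDr, the 2 lines farthest from the median, r was 0.957 (permutation p = 0.00024). Within the 5 lines of lower background it was 0.894, and within the 5 of higher background 0.983.

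The groups overlapped, and the fitted change of CDX2 was 0.21 (SE 0.53, edgeR adjusted p = 0.749, higher in vesicles in 6 of 10 lines), turning to -0.12 without COLO-201 and -0.05 without WiDr. With TMM the 4 lines with most CDX2 in cells were 1.76- to 3.04-fold lower in vesicles. By library total LS1034 (132 against 63.2 CPM) and LS513 (87.5 against 48.9 CPM) were still clearly lower. SNU-C1 (153.6 against 153.3 CPM) and LoVo (43.2 against 39.1 CPM) then did not differ beyond counting error. With TMM the other 6 lines had higher vesicle levels, from 1.10-fold in SW480 to 27.9-fold in COLO-201. That line had 0.173 CPM of the library total in cells (95% exact Poisson interval 0.0635 to 0.377) and 4.91 CPM in vesicles (3.91 to 6.08), and its 83 vesicle counts were 4.08 times the expected background. WiDr vesicles, with 22 counts, lay at 0.552 times the expectation and LS123 at 1.70 times, while in the other 8 libraries CDX2 stood at over 2 times it.

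**Figure D2:**
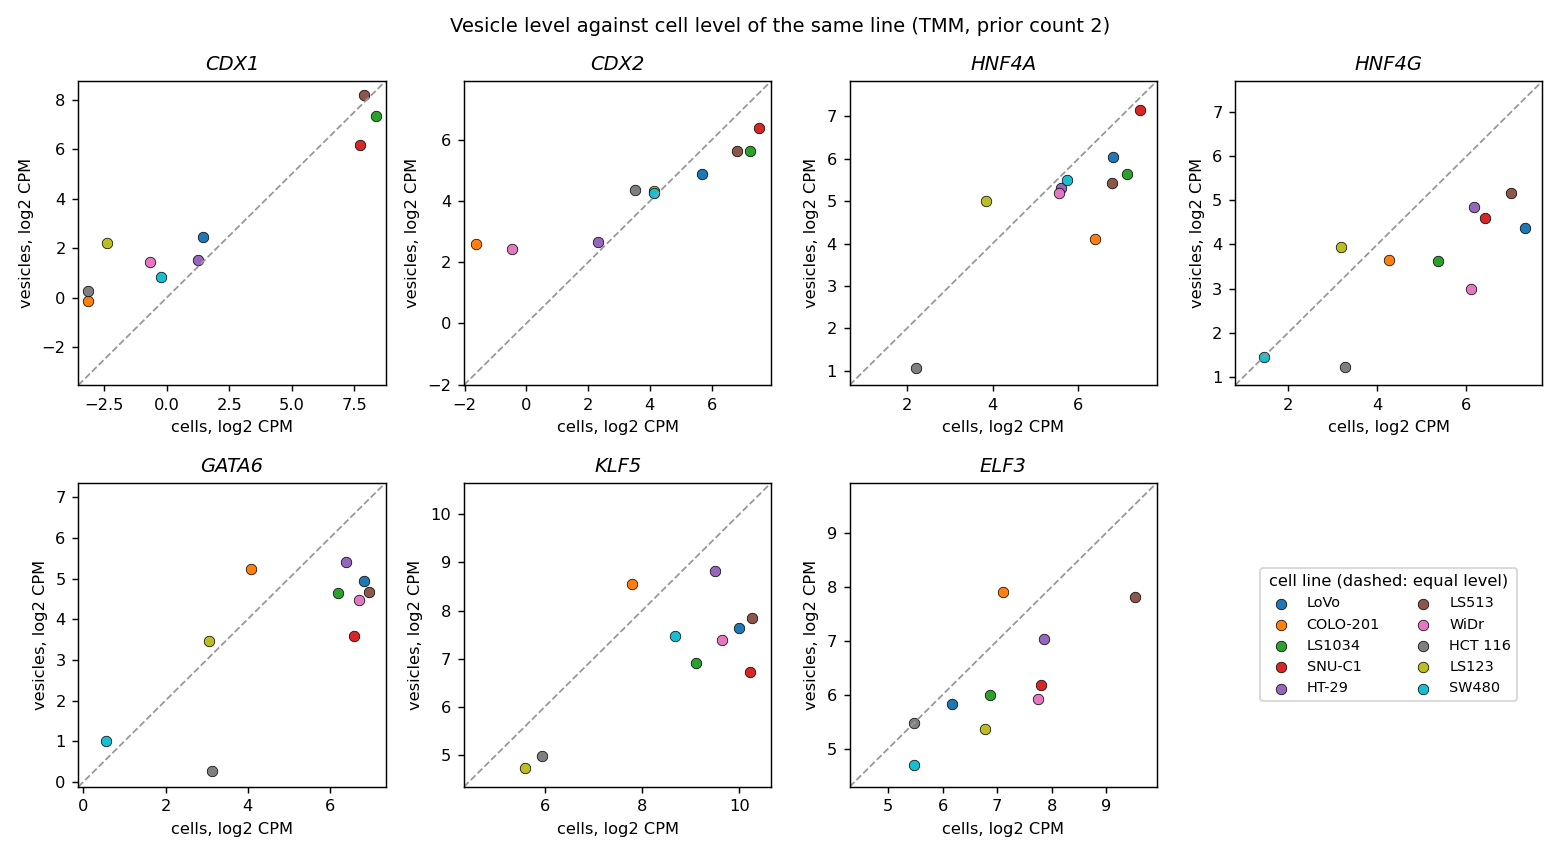
Vesicle level (y axis) against cell level (x axis) of each gene, both in log2 CPM with TMM scaling and a prior count of 2, 1 point per line, with a dashed line at equal levels. CDX2 points follow a rising line of shallow slope with r of 0.948, whereas KLF5 points away from HCT 116 and LS123 show no rise.

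In the 3 lines high in CDX1 the caudal genes stood in unlike proportions. The ratio of CDX1 to CDX2 counts went from 2.16 in cells to 3.27 in vesicles of LS1034, from 2.10 to 5.88 in LS513, and from 1.15 to 0.858 in SNU-C1. With 3 lines this was not tested.

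HNF4A (chromosome 20, 44355700 to 44434596, plus strand) has well-separated promoters, and a count per gene sums the transcripts of both. The 250 bases before each of its 2 starts are shown for that reason, from RefSeq on GRCh38.p14, plus strand, 5′ to 3′. Capitals mark 3 short motifs searched on both strands: TTTAT, the core that caudal factors bind, AGATAA, which zinc finger factors such as the product of GATA6 bind, and CAAAG, a nuclear receptor core within HNF4 sites. The upstream window, chr20:44355449-44355698, holds 1 AGATAA match and 0 of the other motifs, and the downstream window, chr20:44400989-44401238, holds 0 of the 3. AGATAA occurs in 9.2%, TTTAT in 32.7% and CAAAG in 42.1% of 35116 promoter windows of the same length. A match is one of letters only.
HNF4A upstream promoter: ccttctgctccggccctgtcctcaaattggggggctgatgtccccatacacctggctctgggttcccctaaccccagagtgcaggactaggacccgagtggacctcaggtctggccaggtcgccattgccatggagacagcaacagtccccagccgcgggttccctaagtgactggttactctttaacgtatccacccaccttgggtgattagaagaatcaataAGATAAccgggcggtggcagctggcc
HNF4A downstream promoter: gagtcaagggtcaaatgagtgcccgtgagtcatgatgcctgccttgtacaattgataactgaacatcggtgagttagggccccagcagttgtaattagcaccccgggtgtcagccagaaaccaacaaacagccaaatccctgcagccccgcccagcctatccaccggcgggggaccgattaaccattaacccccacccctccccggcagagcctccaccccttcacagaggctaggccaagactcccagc

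HNF4A was present in the cells of all lines, from 4.53 CPM in HCT 116 over a median of 68.5 CPM to 173 CPM in SNU-C1. HCT 116 and LS123 (14.3 CPM) were the low lines, and the other 8 lay between 46.8 and 173 CPM. In vesicles it ran from 1.98 CPM in HCT 116 over a median of 41.3 CPM to 142 CPM in SNU-C1, overlapping the cells. The lines from LS1034 to LS123 were close there, and the 5 neighbouring pairs among them did not differ beyond counting error. HNF4A fell by 0.71 on the log2 scale (SE 0.28, edgeR adjusted p = 0.0430), lower in vesicles in 9 of 10 lines with TMM and in 7 of 10 by library total. The largest difference was in COLO-201 (4.90-fold lower) and the exception was LS123 (2.22-fold higher, at 1.74 times the expected background). This call is not stable. It was lost without any 1 of LoVo, COLO-201, LS1034, LS513, WiDr or HCT 116 (adjusted p up to 0.330), and the estimate ran from -1.04 to 0.04 over the alternatives.

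HNF4G (chromosome 8, 75407914 to 75566843, plus strand) is the paralog of HNF4A. In cells it ran from 2.63 CPM in SW480 over a median of 54.8 CPM to 158 CPM in LoVo. LoVo, LS513, SNU-C1, HT-29 and WiDr were the high lines, and HCT 116 (9.57 CPM) and LS123 (8.93 CPM) did not differ beyond counting error. In vesicles it ran from 2.20 CPM in HCT 116 over 13.8 CPM to 36.1 CPM in LS513, overlapping the cells. HNF4G fell by 1.49 (SE 0.36, edgeR adjusted p = 0.00269). It was lower in 8 of 10 lines, by 8.73-fold in WiDr and 7.73-fold in LoVo, and equal in SW480 (2.63 CPM in both). WiDr vesicles held 33 HNF4G counts, 0.971 times the expected background. LS123 was 1.70-fold higher in vesicles, at 1.87 times the expectation. With background subtracted the change was -1.18 (adjusted p = 0.119), and it stayed called without any single line (adjusted p up to 0.0478).

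The paralogs were not in constant proportion. In cells the ratio of HNF4A to HNF4G counts ran from 0.473 in HCT 116 to 20.4 in SW480, with a median of 1.17, and in vesicles from 0.900 in HCT 116 to 17.1 in SW480, with a median of 2.58. The ratio was higher in vesicles in 8 of 10 lines, from 0.704 to 3.19 in LoVo and from 0.682 to 4.61 in WiDr, and lower in COLO-201 (from 4.37 to 1.38) and SW480. The mean log2 difference was 0.76 ± 1.25 (SD, n = 10), which did not pass the test (exact sign-flip permutation p = 0.0938, two-sided). With background subtracted it was 0.48 over 8 lines, higher in 6 (p = 0.289, exact, n = 8). Without COLO-201 it was 1.03 (p = 0.0117, exact, n = 9), the only omission of 1 line that passed. The other omissions gave exact sign-flip p from 0.0820 (SW480) to 0.1875 (LoVo or WiDr). The WiDr value rests on the 33 vesicle counts of HNF4G named above. This ratio was chosen after the counts had been seen.

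GATA6 (chromosome 18, 22169443 to 22202528, plus strand) shares 240 and 321 exonic bases with 2 antisense RNA genes on the opposite strand. The strand setting of the counting is not given in the sources used here, so reads of the antisense genes cannot be told apart from its own.

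In cells GATA6 ran from 1.36 CPM in SW480 over a median of 78.8 CPM to 124 CPM in LS513. LS513, LoVo, WiDr, SNU-C1, HT-29 and LS1034 lay at 73.5 CPM or more, and COLO-201, HCT 116, LS123 and SW480 at 16.8 CPM or less. In vesicles it ran from 1.10 CPM in HCT 116 over 23.7 CPM to 42.3 CPM in HT-29, and 7 of the 9 neighbouring pairs of lines did not differ beyond counting error. GATA6 fell by 1.31 (SE 0.43, edgeR adjusted p = 0.0174), lower in 7 of 10 lines, by 8.11-fold in SNU-C1 and 7.88-fold in HCT 116. COLO-201 went the other way, with 16.8 CPM in cells and 37.8 CPM in vesicles, at 27.6 times the expected background. LS123 and SW480 were 1.33- and 1.40-fold higher, at 0.959 and 1.33 times the expectation, and SNU-C1 and HCT 116 vesicles stood at 0.883 and 0.637 times it. Without LoVo the change was -0.89 (adjusted p = 0.149).

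KLF5 (chromosome 13, 73054976 to 73077542, plus strand) was the most abundant of the 7, also per length of exon: its median in cells was 164 CPM per kb, against 0.860 (CDX1) to 19.97 CPM per kb (GATA6) in the other 6. In vesicles it stood at 44.2 CPM per kb, against 2.07 (CDX1) to 8.62 CPM per kb (ELF3). That placed it at the 98.4th percentile of all genes in cells and the 95.4th in vesicles (medians over the libraries). In cells it ran from 48.6 CPM in LS123 over a median of 639 CPM to 1219 CPM in LS513, with HCT 116 (61.9 CPM) and LS123 apart from the rest (223 CPM or more). In vesicles it ran from 26.7 CPM in LS123 over 172 CPM to 449 CPM in HT-29, overlapping the cells.

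KLF5 fell by 1.59 (SE 0.37, edgeR adjusted p = 0.00213), lower in vesicles in 9 of 10 lines. SNU-C1 had the widest gap, 11.2-fold, and COLO-201 the exception, with 223 CPM in cells and 373 CPM in vesicles. Counts lay at 2.55 (LS123) to 703 (HT-29) times the expected background, so reads of KLF5 in vesicles were above it in all 10 lines. The call held without any single line (adjusted p up to 0.0475), and in the 5 lines of lowest background the change was -0.89 (adjusted p = 0.130).

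ELF3 (chromosome 1, 202007945 to 202017188, plus strand) shares 664 exonic bases with an antisense gene, with the same limit as for GATA6, and as many with a gene annotated on its own strand. It varied least between lines, with an SD of 1.23 on the log2 scale in cells. It ran from 44.1 CPM in HCT 116 over a median of 127 CPM to 736 CPM in LS513, which stood well apart from the next line, HT-29 (233 CPM). In vesicles it ran from 25.8 CPM in SW480 over 62.0 CPM to 239 CPM in COLO-201, overlapping the cells. ELF3 fell by 0.87 (SE 0.27, edgeR adjusted p = 0.0128), lower in 8 of 10 lines, equal in HCT 116 (44.1 and 44.4 CPM) and 1.74-fold higher in COLO-201. All 10 vesicle libraries held at least 2.28 times the expected background. Without LoVo it was not called (-0.60, adjusted p = 0.167), nor with background subtracted (-0.34, adjusted p = 0.302).

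**Figure D3:**
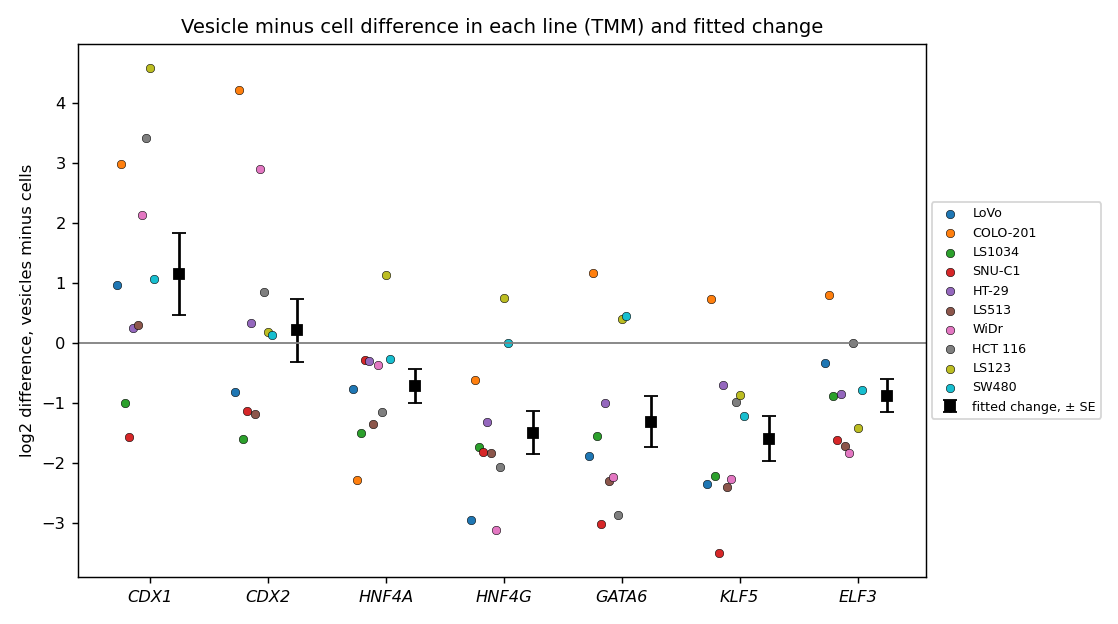
Difference in log2 CPM, vesicles minus cells (y axis, TMM), of each gene (x axis) in the 10 lines (coloured points), with the fitted change and its SE (black squares). KLF5 lies below 0 in 9 lines and above it in COLO-201, and CDX1 and CDX2 spread to both sides. CDX1 points of lines with 0 counts in cells depend on the prior count.

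COLO-201 and LS123 had the most genes higher in vesicles than in cells, each with 5 of the 7. In COLO-201 these were CDX1, CDX2, GATA6, KLF5 and ELF3, of which 4 stood at over 2 times the expected background and CDX1 (11 counts) at 0.896 times. In LS123 they were CDX1, CDX2, HNF4A, HNF4G and GATA6, all at or under 2 times the expectation, in a library with 34.2% of its counts estimated as background. LS1034 and SNU-C1 had 0 of the 7 higher in vesicles. CDX1 and CDX2 were higher in vesicles in 8 and 6 of the 10 lines, so for these genes a higher value was the more common one. For CDX1 these were LS513 and the 7 low lines, all of the latter under 2 times the expected background. For CDX2 they included WiDr and LS123, at 0.552 and 1.70 times it.

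**Figure D4:**
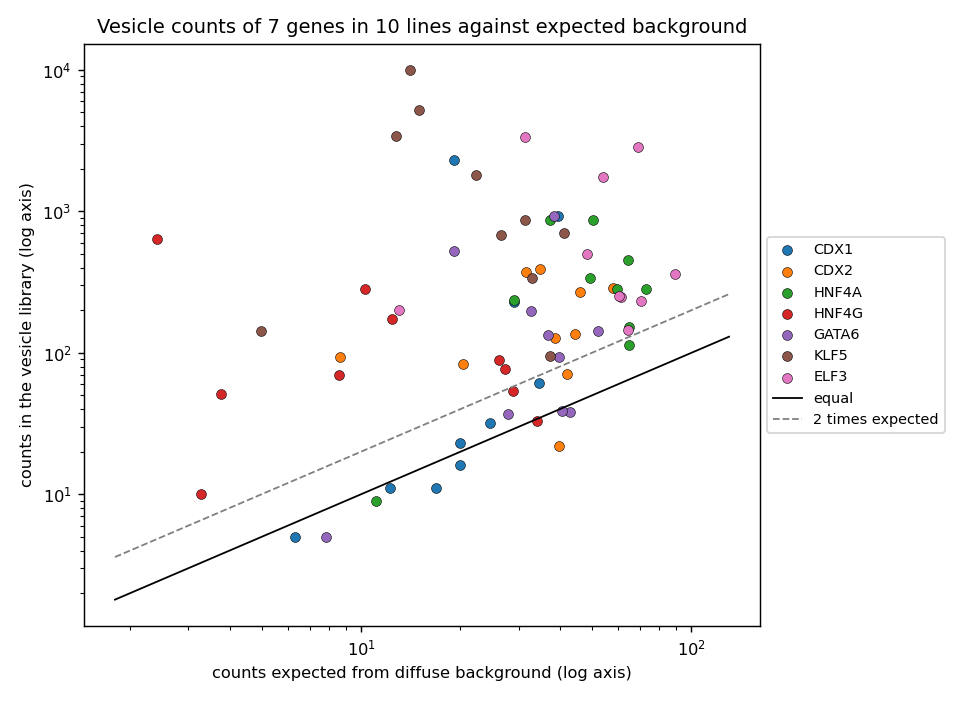
Counts of the 7 genes in the 10 vesicle libraries (y axis, log scale) against the counts expected there from diffuse background (x axis, log scale), 1 point per gene and line. KLF5 and ELF3 lie above the dashed line of 2 times the expectation in all 10 lines, and CDX1 in 3.

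The ranking of lines was carried from cells to vesicles to unlike degrees. Among the 6 genes whose lines formed no separate clusters CDX2 had the highest r, given above. For HNF4G r was 0.779 and rho 0.721 (permutation p = 0.0144 and 0.0329, two-sided, adjusted over the 7 members). Without SW480 and LS123, its 2 farthest lines, r was 0.816 (permutation p = 0.0129), but with background subtracted it was 0.324 (adjusted permutation p = 0.370), without SW480 0.661 (adjusted permutation p = 0.0596), and it was 0.928 within the 5 lines of lower and 0.225 within the 5 of higher background. For HNF4A r was 0.832 and rho 0.842 (adjusted permutation p = 0.0143 and 0.00870). Without HCT 116 and LS123 r was 0.562 and did not pass (permutation p = 0.142).

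For ELF3 r was 0.740 and rho 0.794 (adjusted permutation p = 0.0186 and 0.0164), and without LS513 and HCT 116 r was 0.593 (permutation p = 0.116). For GATA6 r was 0.744 (adjusted permutation p = 0.0217) while rho, at 0.539, did not pass (adjusted permutation p = 0.131), and without SW480 and LS123 r was 0.639 (permutation p = 0.122). For KLF5 r was 0.713 (adjusted permutation p = 0.0236) and rho 0.382 (adjusted permutation p = 0.280). Without LS123 and HCT 116 its r turned to -0.374 (permutation p = 0.360), so that the relation of KLF5 rests on those lines, and without LS123 alone r was 0.528 (adjusted permutation p = 0.153). For HNF4A, ELF3 and GATA6 r stayed positive over the 8 lines left, which span a narrower range of levels, and did not pass. Within the lower and higher background lines r was 0.898 and 0.783 for HNF4A, 0.769 and 0.643 for GATA6, 0.753 and 0.929 for KLF5, and 0.831 and 0.498 for ELF3, each over 5 lines.

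The members differed in how they went together across the 10 cell libraries, given as a description because related lines are among the points. HNF4G and GATA6 had the closest levels, with r of 0.980 in cells and 0.836 in vesicles. HNF4A with KLF5 (0.841) and HNF4G with KLF5 (0.728) followed. CDX1 is left out because of its separate clusters. With the other 5 members CDX2 had r from 0.0959 (ELF3) to 0.312 (HNF4A) in cells. HNF4A and HNF4G, the paralogs, had r of 0.573. Over the 15 pairs the median was 0.544 in cells and 0.413 in vesicles, where CDX2 and KLF5 came to -0.341.

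**Figure D5:**
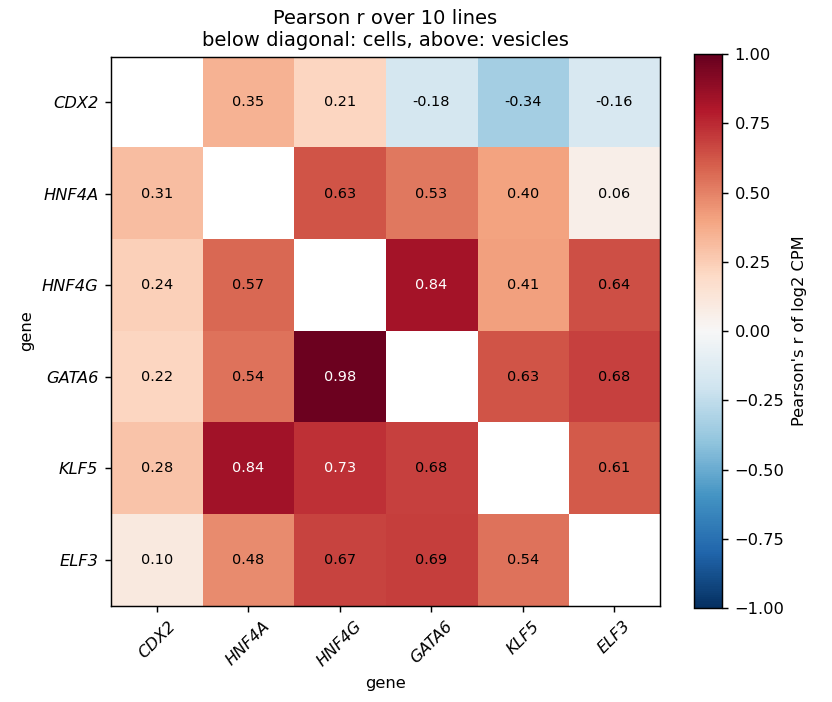
Pearson's r of log2 CPM over the 10 lines for each pair of the 6 genes other than CDX1 (both axes), cells below the diagonal and vesicles above it, blue for negative and red for positive values. HNF4G with GATA6 is the darkest cell-library pair at 0.98, and the CDX2 column below the diagonal is pale.

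Among 10035 other genes averaging 10 CPM or more in cells, those whose levels over the 10 cell libraries were most like CDX1 were FABP1, an intestinal fatty acid carrier, GUCY2C, the intestinal guanylin receptor, and IL2RG. Likeness to CDX1 reflects its split of 3 lines against 7, so no r is given. CDX2 was closest to RALGAPA1, TMEM117 and CHD1L (r of 0.906 to 0.919 in cells, 0.135 to 0.514 in vesicles). HNF4A was closest to ZNF253, RPP25 and AVEN (0.957 to 0.972, then -0.0187 to 0.713), and HNF4G to GATA6, CPEB2 and the claudin gene CLDN2 (0.944 to 0.980, then 0.777 to 0.836). GATA6 was closest to HERPUD2, HNF4G and TMBIM6 (0.955 to 0.981, then 0.0686 to 0.836), and KLF5 to BAIAP2L2, POF1B and FOSL2 (0.962 to 0.979, then 0.201 to 0.872). ELF3 was closest to DAB2IP, the claudin gene CLDN4 and SLC35C1 (0.954 to 0.966, then 0.0377 to 0.378). With so many genes and 10 points such values are picked maxima. The vesicle values played no part in the choice.

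Genes of the colon epithelium known to be under CDX control were compared across the cell libraries with the members. Among the 6 members other than CDX1, CDX2 had the fewest such genes with a high r. CDX1 is kept out of this ranking because of its separate clusters. Of the 14 genes counted next, 13 had r over 0.5 with CDX1, which reflects its split of 3 lines against 7. Whether the genes follow CDX1, or CDX factors in general, is therefore not shown. Of 14 such genes with at least 10 CPM in cells, 14 had r over 0.5 with KLF5, 13 with HNF4A, 12 with HNF4G, 11 with GATA6 and with ELF3, and 5 with CDX2. Among all genes 12.1% (CDX2) to 18.0% (KLF5) had such an r. The median r of the 14 genes was 0.237 with CDX2 and 0.754 with HNF4A, beside medians of all genes between -0.00188 and 0.0455. Of 12 brush border and lipid genes under HNF4 control, 10 had r over 0.5 with KLF5, 9 with HNF4A, 8 with GATA6, 6 with HNF4G and with CDX2, and 5 with ELF3. In cells HCT 116 and LS123, which resembled each other, were the lowest lines for KLF5 and HNF4A but not for CDX2. Both also held CDH17, among the 14 genes, below 1 CPM. Counts of r were not repeated without LS123, so the part of this pair in them was not tested.

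The same lists were counted in vesicles against cells, beside 28.6% of all genes tested that rose and 28.1% that fell. Differences between these lists and the members were not tested. Of 15 tested colon epithelial genes under CDX control 2 rose (13.3%) and 0 fell, and their median was -1.21. TSPAN8, a tetraspanin of epithelial cells, averaged 1112 ± 1010 CPM in cells against 331 ± 336 CPM in the vesicle libraries (SD, n = 10; log2 change -1.42, SE 0.63, edgeR adjusted p = 0.0687), and the intestinal cadherin CDH17, from 734 ± 1004 to 33.9 ± 35.5 CPM, was at -1.86 (SE 1.57, adjusted p = 0.329). AGR2, a disulfide isomerase of secretory cells, and the adhesion gene CEACAM5 were at -1.74 and -1.23 and not called. These genes were absent from some lines: their lowest cell levels were 0 to 0.159 CPM and their highest 2313 to 2575 CPM. The count is sensitive to the lines and the block. Without LS123 there were 4 falls, a setting in which no share of all genes was counted. Without WiDr and LS123 there were 7, where 25.2% of all genes fell, and without the block 5, where 22.7% fell. TSPAN8 and AGR2 were called without LS123 (-1.78, edgeR adjusted p = 0.00128, and -2.18, adjusted p = 0.00448). Of 19 brush border and lipid genes under HNF4 control 8 rose (42.1%) and 1 fell (5.26%), with a median of 1.67. Among the 12 with at least 10 CPM in cells 2 rose (16.7%) and 1 fell (8.33%), with a median of 0.60, beside 5.29% and 42.2% of all such genes. The other 6 rises were of genes with less than that in cells, which could pass the filter on low counts through vesicle reads, so the count supports no direction. With background subtracted 12 were tested, of which 3 rose and 1 fell, beside 15.8% and 18.9% of all genes. DPP4, a brush border peptidase, fell by 1.65 (SE 0.49, edgeR adjusted p = 0.0100). Its call was lost with upper-quartile scaling (-0.91, adjusted p = 0.113), with library size only (-1.20, 0.0703), in the 5 lines of highest background (-1.40, 0.126) and without LoVo (-1.07, 0.0733). TM4SF4, the actin-bundling villin gene VIL1 and FABP1 were at 0.20, -0.45 and 0.66 and not called.

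General epithelial genes fell in 10 of 15 cases with 0 rises (66.7% lower, median -1.56), beside 42.2% of all genes at or above 10 CPM in cells. EPCAM, an adhesion molecule of epithelia, fell by 3.13 (SE 0.39, edgeR adjusted p = 1.17e-05), from 2579 ± 1795 to 274 ± 121 CPM (SD, n = 10), in 10 of 10 lines. The keratins KRT8, KRT18 and KRT19 were at -0.59, -0.30 and -0.38 and not called, and all 3 had the opposite sign with upper-quartile scaling or background subtraction.

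Among 24 tested transcription factors of the gut other than the 7, 6 rose (25%) and 5 fell (20.8%), with a median of 0.02. Among the 19 with at least 10 CPM in cells 2 rose (10.5%) and 5 fell (26.3%), beside 5.29% and 42.2% of all such genes. The shares over the whole list were near those of all genes tested and are no result about it. SOX9, a crypt and stem cell factor, fell by 2.64 (SE 0.24, edgeR adjusted p = 1.34e-06), from 384 ± 206 to 64.8 ± 40.7 CPM (SD, n = 10). EHF, an ETS factor related to ELF3, fell by 1.70 and TCF7L2, the nuclear effector of Wnt signalling, by 1.20, all 3 in 10 of 10 lines. With background subtracted TCF7L2 was not called (-0.90, adjusted p = 0.0916). The Notch effector HES1 was at -0.84 and not called (adjusted p = 0.113). Of 18 tested relatives of the members by family 7 fell (38.9%) and 3 rose (16.7%). Among the 12 with at least 10 CPM in cells 7 fell (58.3%) and 0 rose, beside 42.2% and 5.29% of all such genes. KLF10 was at -2.50, KLF3 at -2.07, ELF1 at -1.65 and KLF6 at -0.76. The call of KLF6 was lost without any 1 of LoVo, LS1034, LS513, WiDr or LS123. Of 16 tested markers of other cell types 14 rose and 0 fell (median 5.46), with COL1A1 at 4.56, VWF at 6.21 and KRT5 at 5.78 on the log2 scale, and SERPINA1 and LUM at -0.11 and 1.15 and not called. Their median gene had 0.290 CPM in cells, so members of this list could pass the filter on low counts through vesicle reads alone, and the count supports no direction. After background subtraction 6 were tested and 5 rose, where 15.8% of all genes rose.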

How the data were processed

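The deposited table gives the authors' unnormalised read counts of 17113 protein-coding symbols in 20 libraries. STAR, featureCounts and hg19 are named per the submitters' processing notes, while versions, annotation and strand setting are not given in the sources used here. Each of the 20 columns carried the title of 1 library. Vesicles were compared with cells by edgeR 4.0.16 (R 4.3.3, glmQLFit with robust fit, TMM, filterByExpr, cell line as a block, Benjamini-Hochberg over 15130 genes). The fit was run on simulated counts with 200 genes changed. These had no line effects and no diffuse vesicle background, so that run does not cover such features of the data. SE is the absolute log2 change divided by the square root of F. Pairing is by the cell line label, and a line's deviations in cells and vesicles correlated at 0.223 to 0.640. Background was fitted (Poisson regression on exonic length and GC content, GENCODE 29) to 2077 genes that never exceeded 10 counts in cells, and predicted for 17104 genes (99.95%). Correlations used 100000 permutations of pairings. A widest gap over 50% of the range, set after seeing the data, defined separate clusters. Named genes were the 7 members, the 4 genes of highest mean CPM in cells of each list (for other cell types also in vesicles), and the 3 genes most like each member. The members and lists were chosen with earlier results of these data known. Promoter windows of the other members are not shown here. Positions are GENCODE 29 on GRCh38, not the build of the counts. Alternatives were other scalings, DESeq2 1.42.0, no filter, no block, background subtraction, subsets of lines and each line left out.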

Additional observations from a re-analysis of the deposited data

Results flagged for a closer look

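HNF4A in HCT 116 vesicles stood apart from the other 9 vesicle libraries, at 1.07 log2 CPM where the next lowest, COLO-201, had 4.10, a gap of 0.499 of the whole range against a critical value of 0.466 for 10 samples. The library held 9 HNF4A counts, 0.808 times the expected background, and HCT 116 cells were also the lowest of the cell libraries (4.53 CPM). 24 sets of 10 values were examined in this way, and chance alone marks about 1 in 20.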

How the results depend on the processing

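HNF4G and KLF5 stayed lower without any 1 line, and with every alternative run all of HNF4G, GATA6, KLF5 and ELF3 kept a negative estimate. The number of members that fell was 2 with DESeq2 size factors, library size only, no replicate block, background subtracted or the 5 lines of lowest background. It was 3 with DESeq2 and 1 with upper-quartile factors. With 1 line left out it was 2 to 5 (2 without LoVo), and no share of all genes was counted for those runs. CDX1 made 1 member higher with upper-quartile factors (1.87) and with DESeq2 (1.91), and turned to -0.52 without the replicate block and -0.23 with background subtracted. CDX2 turned to -0.94 without the block, -0.30 in the 5 lines of highest background and -0.084 without WiDr and LS123. In the order DESeq2 size factors, upper-quartile, library size, DESeq2, no block and background subtracted, HNF4A was at -0.34, 0.039, -0.24, -0.34, -0.74 and -0.40, all not called, and at -0.39 in the 5 lines of highest background. ELF3 in the same order was at -0.50, -0.13, -0.39, -0.50, -1.01 and -0.34, at -0.49 in the 5 lines of lowest background and at -0.67 without WiDr and LS123, all not called. GATA6 was not called at -0.93, -0.55 and -0.82 with the other 3 scalings, -1.59 without the block and -0.83 in the 5 lines of lowest background. HNF4G was not called at -0.74 (upper-quartile) and -1.18 (background subtracted), nor KLF5 at -0.89 in the 5 lines of lowest background. With 1 line left out estimates ran from 0.79 to 1.597 for CDX1, -0.12 to 0.69 for CDX2, -0.90 to -0.36 for HNF4A, -1.71 to -0.96 for HNF4G, -1.58 to -0.89 for GATA6, -1.83 to -1.16 for KLF5 and -1.05 to -0.60 for ELF3. The cause of these changes was not tested.

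Correlations between cells and vesicles lost their call with background subtracted for HNF4G (0.324) and GATA6 (0.544) and without WiDr and LS123 for KLF5 (0.535). With 1 line left out r ran from 0.932 to 0.976 for CDX2, 0.515 to 0.909 for HNF4A (lost without HCT 116), 0.661 to 0.865 for HNF4G and 0.602 to 0.834 for GATA6 (both lost without SW480), 0.528 to 0.856 for KLF5 (lost without HCT 116, LS123 or SW480) and 0.609 to 0.892 for ELF3 (lost without LS513 or SW480). The log2 difference of the HNF4A to HNF4G ratio ran from 0.54 to 1.03 with 1 line left out, and passed only without COLO-201. It was 0.48 with background subtracted and 0.56 without WiDr and LS123 (exact p = 0.289 and 0.227, n = 8 each), both not called.

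Counts of list genes moved as follows. The shares of all genes in the same settings are those given with the members above, and none was counted with 1 line left out. Other gut transcription factors had 10 higher with DESeq2, 2 without the block or with background subtracted and 3 in the 5 lines of lowest background, and 3 lower with upper-quartile factors or library size only (5 to 7 higher and 4 to 6 lower with 1 line left out). Genes under CDX control had 0 higher and 5 lower without the block, 1 and 2 with background subtracted, 1 and 1 in the 5 lines of lowest background, 1 lower with DESeq2 and 7 lower without WiDr and LS123 (0 to 4 lower with 1 line left out). Genes under HNF4 control had 5 higher without the block, in the lines of lowest or highest background and without WiDr and LS123, and 3 with background subtracted, and 0 lower with upper-quartile factors, library size only or the 5 lines of highest background (6 to 8 higher and 0 to 1 lower with 1 line left out). Relatives by family had 5 higher with upper-quartile factors or DESeq2, 0 with background subtracted and 1 in the 5 lines of lowest background, and 4 lower with DESeq2 size factors, DESeq2 or background subtracted and 3 with the other scalings or in the 5 lines of lowest background (4 to 7 lower with 1 line left out). Markers of other cell types had 5 higher with background subtracted.

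Among single genes, estimates changed sign for HES1 (0.16, lowest background), TM4SF4 (-2.27 without the block, -1.31 in the lines of lowest background, -0.44 to 0.87 with 1 line left out), VIL1 (0.28 upper-quartile, 0.13 background subtracted), FABP1 (-1.10 without the block, -0.11 without WiDr and LS123), KRT8 (0.16 and 0.22, upper-quartile and background subtracted), KRT18 (0.074 with DESeq2 size factors, 0.45, 0.17, 0.075 with DESeq2, 0.52 and 0.32, and -0.48 to 0.022 with 1 line left out), KRT19 (0.36, 0.075, 0.41 and 0.32), SERPINA1 (0.26, 0.63, 0.34, 0.27 and 0.87, and -0.41 to 0.16 with 1 line left out), KRT5 (-0.36 without the block) and LUM (-0.24 without the block).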
